A study of Mus musculus with 12 samples.

Results

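Of 12 hippocampal arrays, 4 carried many transcripts of the choroid plexus at higher levels than the other 8. Of 47 plexus genes measured, 26 were detected on all 12 arrays. The 4 arrays were EtOH 2, EtOH 4, Control 2 and Control 4. They were chosen by their own signal for Ttr, which encodes transthyretin, the carrier of thyroid hormone in cerebrospinal fluid. The raw intensity of Ttr was 44116 on EtOH 2, 41964 on EtOH 4, 38730 on Control 2 and 45809 on Control 4. On the other 8 arrays it ran from 401 to 3303 with a median of 738, and the highest of them was Control 5. Because Ttr chose the arrays, every difference between the 4 and the 8 below is a description and carries no p-value.

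All mice were female C57BL/6J and 12 weeks old, and total RNA of the hippocampus was hybridised to 1-colour bead arrays of Illumina. The EtOH group (6 arrays) came from dams that voluntarily drank ethanol at 10% (v/v), starting 0.5 and ending 8.5 days post-coitum, and the Control group had 6 arrays. The labels repeat the treatment text on the Control samples, so the groups were read from the sample titles, and neither litters nor the number of mice per array are given. P-values therefore measure only the spread between arrays. The titles also place the arrays on 2 chips of 6, and of the 4 arrays EtOH 2, EtOH 4 and Control 2 lay on chip 1 and Control 4 on chip 2.

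The choroid plexus is a fold of vascular tissue in each brain ventricle, covered by an epithelium that secretes cerebrospinal fluid. Its epithelial cells move ions and water from blood to ventricle, seal the gap between cells with tight junctions and release carrier proteins and growth factors into the fluid. The plexus of the lateral ventricle lies along the fimbria of the hippocampus. Its neighbours there are the ciliated ependyma that lines the ventricle and the fibroblasts, vessels and macrophages of the plexus core and meninges.

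Apart from these transcripts the 2 sets of arrays looked alike in signal. Median raw intensity was 129.1 to 145.3 on the 4 arrays and 126 to 146.9 on the 8, and 20184 to 20858 and 19748 to 20617 probes were detected (detection p under 0.05). Correlations between arrays ran from 0.981 to 0.994. A probe was used where it was detected on at least 4 of the 12 arrays, whatever the array, and a gene was taken at its brightest probe, which left 11357 genes. Levels are background-corrected, quantile-normalized log2 intensities, and differences are the 4 arrays minus the 8, adjusted for chip and group. Levels of different genes cannot be ranked against each other, since each probe has its own response.

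Genes of the choroid plexus were 40 of the 277 genes that lay above all 8 other arrays and 35 of the 80 with a difference over 1 on the log2 scale. The 4 arrays all lay above all 8 for 277 genes (2.44% of those tested) and all below for 56 (0.493%). A difference over 1 was found for 80 genes (0.704%) and a difference under -1 for 2 genes (0.0176%). The median gene differed by -0.02. Leaving out an array can only keep or raise the counts without overlap, so a rise by itself does not show dependence on that array. They became 437 higher and 151 lower without Control 4. Lower genes numbered 163, 121, 93 and 90 without EtOH 4, EtOH 2, Control 1 and Control 2. The 80 became 43 in the authors' normalized table or with no background correction, and 30 with detection required on every array (detection p under 0.01). Of 65 listed plexus genes 57 had a probe in the tables used here and 47 passed the detection filter, 11 of them detected only on the 4 arrays at the brightest probe and 9 of those at every probe. Among the 47, 40 lay above all 8 arrays, 0 lay below, 35 differed by over 1 and the median difference was 1.69. Within chip 1 the median was 2.13 and within chip 2, where Control 4 alone belongs to the 4 arrays, 1.33. The filter admits a gene through the 4 arrays alone, so genes detected on all 12 arrays were also counted. There 20 of 26 plexus genes lay above all 8 arrays, with a median of 1.42, where 213 of 9717 genes of any kind did (2.19%). The 40, 35 and 20 plexus genes each include Ttr, which chose the arrays. The gene lists were also chosen with earlier results of these data known, so these counts are a description. In whole tissue, more plexus cells and more plexus RNA per cell cannot be told apart.

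**Figure D1:**
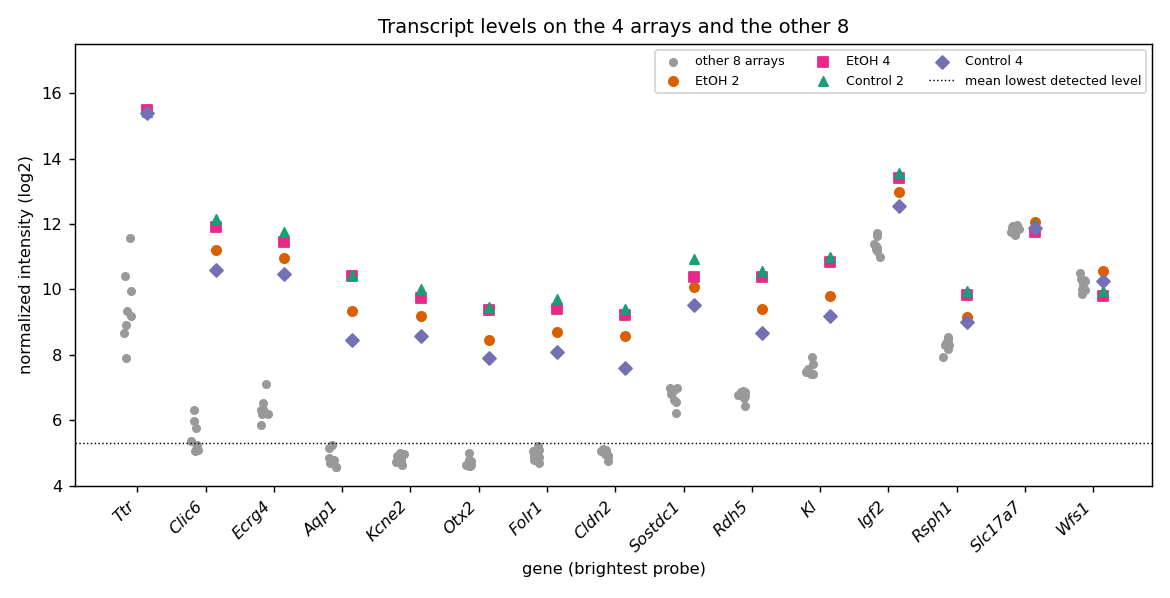
Normalized log2 intensity (y axis) of 15 genes (x axis) on each array, with grey points for the other 8 arrays, coloured symbols for the 4 arrays and a dotted line at the mean of the lowest detected levels. Every plexus gene drawn has its 4 coloured symbols above its grey points, whereas the neuronal genes Slc17a7 and Wfs1 overlap; the genes drawn were picked with their values known.

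Among secreted products, 9 of 11 measured genes lay above all 8 arrays (2.44% of all genes did), Ttr, which chose the arrays, included. Of the 8 secreted products detected on all 12 arrays, 6 did, again with Ttr (2.19% of all such genes did). Normalized Ttr was 15.39 on EtOH 2, 15.47 on EtOH 4, 15.43 on Control 2 and 15.39 on Control 4, against 7.92 to 11.57 (median 9.26) on the 8. This put Ttr between the 8th and 12th brightest probe on each of the 4 arrays and between the 1404th and 9527th on the others. The adjusted difference was 5.80, or 55.9-fold. Ttr therefore sat close to the top of the scale on each of the 4, where quantile normalization gives equal values to equal ranks.

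Ecrg4, a gene for a secreted peptide precursor (augurin), was 10.96 on EtOH 2, 11.45 on EtOH 4, 11.76 on Control 2 and 10.48 on Control 4. On the 8 arrays it ran from 5.86 to 7.12 with a median of 6.30. The lowest of the 4 exceeded the highest of the 8 by more than the range of the 8, and the adjusted difference was 4.62, or 24.6-fold. Sostdc1, a secreted BMP and WNT antagonist, stood at 10.06 on EtOH 2, 10.38 on EtOH 4, 10.92 on Control 2 and 9.52 on Control 4, against 6.24 to 6.99 (median 6.85). It differed by 3.44, and again no array of either set reached the other. Kl, whose protein klotho is shed into the fluid and acts with FGF23 receptors, was 9.81 on EtOH 2, 10.84 on EtOH 4, 10.99 on Control 2 and 9.18 on Control 4. The 8 arrays held Kl between 7.41 and 7.94, a detectable level on every array, and the difference was 2.54.

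Growth factor genes were well detected on the 8 arrays and differed by less. Igf2, a growth factor that plexus and meninges release, was 12.97 on EtOH 2, 13.39 on EtOH 4, 13.56 on Control 2 and 12.54 on Control 4, against 11.01 to 11.71 (median 11.30), a difference of 1.63. Igfbp2, which binds such factors, differed by 1.69. The coagulation factor gene F5 and the protease inhibitor gene Wfikkn2 were not detected on any of the 8 arrays at their brightest probes, so only bounds can be given there. F5 was at least 6.21-fold and Wfikkn2 at least 3.22-fold higher at these probes. Each bound here and below is taken against the lowest detected signal of the 8 arrays. Bounds compare plain means and, unlike the differences, are not adjusted for chip and group. The second probe of F5, detected on 1 of the 8, differed by 1.29 without overlap. The other probes of Wfikkn2, of which 1 was detected on 2 of the 8, differed by -0.07 and -0.0021 and did not pass the filter. Lbp, the lipopolysaccharide binding protein, differed by 2.57 and was detected on 1 of the 8.

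Not every secreted product of the plexus followed. Cst3 (cystatin C), which many brain cells make, differed by -0.04, and Vegfa, which maintains fenestrated vessels, by 0.03. Both overlapped between the sets. Bmp6 did not pass the filter, and Enpp2 was not analysed here.

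Transport genes of the epithelium included several that were seen on the 4 arrays alone. Of 19 measured, 15 lay above all 8 arrays (2.44% of all genes did) and 6 were detected only on the 4. Those 6 passed the filter through the 4 arrays alone. Among the 10 transport genes detected on all 12 arrays, 6 lay above the 8 (2.19% of all such genes did). Their median difference was 0.73, against 1.43 for the 19. Clic6, an intracellular chloride channel gene, was 11.20 on EtOH 2, 11.92 on EtOH 4, 12.15 on Control 2 and 10.58 on Control 4, against 5.07 to 6.31 (median 5.31) on the 8. It was detected on 3 of the 8, and its difference was 5.81, which is not given as a fold because most of the 8 arrays were not above background. Aqp1, the water channel of the epithelium's ventricular face, was 9.34 on EtOH 2, 10.41 on EtOH 4, 10.43 on Control 2 and 8.47 on Control 4. It was not detected on any of the 8, which puts it at least 20.4-fold higher, and its 2 other probes differed by 3.63 and 2.26.

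Kcne2, a subunit of potassium channels, was 9.19 on EtOH 2, 9.74 on EtOH 4, 10.01 on Control 2 and 8.59 on Control 4, at least 16.8-fold above the 8 arrays. Folr1, the receptor that carries folate into the fluid, was 8.71 on EtOH 2, 9.40 on EtOH 4, 9.71 on Control 2 and 8.08 on Control 4, at least 12.6-fold above them. Neither was detected on any of the 8. The lactate transporter gene Slc16a8 and the metalloreductase gene Steap1 behaved alike, with bounds of 3.93-fold and 3.77-fold, and the retinoid transporter gene Abca4 had the lowest bound, 1.46-fold.

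Other transporter genes were higher on the 4 arrays and were detected on some or all of the 8. The sulphate transporter gene Slc13a4 differed by 2.31 and the anion exchanger gene Slc4a2 by 1.43. The zinc transporter gene Slc39a4, detected on 2 of the 8, differed by 1.87. The carbonic anhydrase genes Car14 and Car12, whose products supply bicarbonate, differed by 1.66 and 0.89. The cation channel gene Trpv4 differed by 1.36 (detected on 3 of the 8) and the copper importer gene Slc31a1 by 1.23. Slc12a2, the sodium, potassium and chloride cotransporter NKCC1 that neurons and glia also use, had the smallest difference among those without overlap, 0.57. The sodium pump subunit gene Atp1b1 differed by -0.01 and the iodide transporter gene Slc5a5 by 0.01, and the thyroid hormone and organic anion transporter gene Slco1c1, which brain vessels also carry, by 0.38. The monoamine transporter gene Slc29a4 differed by 0.49. These 4 overlapped between the sets. Slc4a10 and Slc2a12 did not pass the filter, and Kcnj13 and Slc4a5 were not analysed here.

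All 9 measured structural genes of the epithelium lay above all 8 arrays (2.44% of all genes did). However, the filter could admit genes through the 4 arrays alone. Of the 3 structural genes detected on all 12 arrays, 3 lay above the 8 (2.19% of all such genes did). Cldn2, which forms pores for cations and water in the tight junction, was 8.57 on EtOH 2, 9.21 on EtOH 4, 9.41 on Control 2 and 7.62 on Control 4. It was not detected on the 8 and was at least 10.45-fold higher, and its second probe differed by 3.38. Cldn1, a sealing claudin that meninges also make, differed by 1.35. The short-chain collagen genes Col8a2 and Col8a1 differed by 3.04 and 2.50 and were detected on 6 and 3 of the 8. However, a second probe of Col8a2 differed by 0.55 and overlapped. The epithelial keratin genes Krt8 and Krt18 differed by 1.48 (detected on 1 of the 8) and, with no detection on the 8, by at least 1.69-fold. The heparan sulphatase gene Sulf1 differed by 1.42, the junction gene Cgnl1 (paracingulin) by 1.41 and Cab39l, a kinase scaffold, by 0.93. A second probe of Cgnl1 differed by 0.21 and overlapped. Cldn3, Perp, Col9a3 and Msln did not pass the filter and Ezr had no named probe.

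Of 8 measured regulators, receptors and enzymes, 7 lay above all 8 arrays (2.44% of all genes did). Among the 5 of them detected on all 12 arrays, 5 did (2.19% of all such genes did). Otx2, the homeobox factor that specifies and maintains the plexus and whose protein the plexus secretes, was 8.46 on EtOH 2, 9.39 on EtOH 4, 9.47 on Control 2 and 7.90 on Control 4. It was not detected on any of the 8 arrays, which puts it at least 11.2-fold higher. Msx1, another homeobox factor, differed by 1.87 and was detected on all 12. Rdh5, a retinol dehydrogenase, differed by 2.80 and Ace (angiotensin converting enzyme) by 2.48. Calml4, a calmodulin-like protein of the brush border, differed by 2.84 and was detected on 2 of the 8. The epoxide hydrolase gene Ephx1 differed by 0.83 and Lgals3bp, a galectin ligand, by 0.76. Mfrp, a frizzled-related membrane protein, overlapped (0.25). Lmx1a, a roof plate factor, did not pass the filter, yet its values of 5.10 to 5.66 on the 4 arrays lay above the 4.57 to 4.96 of the 8. Htr2c and Tmem72 did not pass the filter either, and Prlr and Wdr86 had no named probe.

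Since Otx2 transcript was seen on the 4 arrays alone, the promoters of the plexus genes that lay above the 8 were searched for TAATCC, the core sequence bound by OTX2, on both strands (GGATTA on the other). The window was the 250 bases before each gene start in RefSeq, build GRCm38.p6, and 32 of the 40 genes were matched by symbol, with 43 promoters. The motif was present in 4 of the 43 promoters (9.3%) and in 2054 of 32851 promoters of all genes (6.25%), so its share was near that of promoters at large. The 4 are printed because they are the ones that hold it, with the match in capitals. They lie at chr14:48665110-48665359 on the minus strand (Otx2, a match starting 211 bases before the gene start), chr11:105967698-105967947 on the plus strand (Ace, 27 bases before), chr3:95904686-95904935 on the minus strand (Car14, 61 bases before) and chr3:122044210-122044459 on the plus strand (Abca4, 58 bases before).
Otx2: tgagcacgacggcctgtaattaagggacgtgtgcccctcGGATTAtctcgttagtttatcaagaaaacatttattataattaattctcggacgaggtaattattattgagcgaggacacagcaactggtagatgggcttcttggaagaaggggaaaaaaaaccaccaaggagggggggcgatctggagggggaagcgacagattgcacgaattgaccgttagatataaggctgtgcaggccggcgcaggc
Ace: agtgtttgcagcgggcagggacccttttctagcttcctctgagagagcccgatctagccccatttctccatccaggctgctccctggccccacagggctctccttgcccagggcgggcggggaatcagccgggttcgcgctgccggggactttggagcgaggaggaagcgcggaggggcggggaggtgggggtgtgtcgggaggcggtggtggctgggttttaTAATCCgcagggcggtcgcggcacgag
Car14: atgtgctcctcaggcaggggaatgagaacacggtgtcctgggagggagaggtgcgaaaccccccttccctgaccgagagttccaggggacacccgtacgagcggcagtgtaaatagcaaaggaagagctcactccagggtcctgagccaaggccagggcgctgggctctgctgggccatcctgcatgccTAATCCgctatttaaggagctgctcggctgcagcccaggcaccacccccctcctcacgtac
Abca4: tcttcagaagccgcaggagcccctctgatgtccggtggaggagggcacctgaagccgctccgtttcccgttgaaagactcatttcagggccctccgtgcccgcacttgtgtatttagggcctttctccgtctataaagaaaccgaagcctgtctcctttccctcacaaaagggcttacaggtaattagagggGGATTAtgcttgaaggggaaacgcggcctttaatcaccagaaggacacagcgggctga
A match to these letters is a description of the window and not a site of binding.

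Genes outside the lists with the largest differences are named next. Wfdc2, a secreted protease inhibitor of many epithelia, was 9.51 on EtOH 2, 10.61 on EtOH 4, 10.60 on Control 2 and 8.91 on Control 4. It was not detected on any of the 8 arrays and was at least 24.1-fold higher, above the bounds of the listed plexus genes. The defensin gene Defb11 was at least 9.60-fold higher, Ooep, known from the oocyte, at least 4.18-fold and the glycosyltransferase gene Large2 at least 3.34-fold, all with no detection on the 8. Cox8b, a subunit of cytochrome oxidase known from heart and brown fat, differed by 2.98 and was detected on 3 of the 8. The RNA binding protein gene Rbm47, found in epithelia, differed by 2.66.

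Trpm3, a steroid and heat sensitive cation channel, differed by 2.84 at its brightest probe, and its 6 other probes by 0.07 to 2.63. The size therefore depends on the probe, and on the 8 arrays most of these probes were detected on few or none. Tcea3 (elongation factor) differed by 2.24, Pcolce2 (collagen processing) by 2.08 and the methyltransferase gene Inmt by 2.03. Itpripl1 differed by 1.76, the imprinted growth inhibitor gene Cdkn1c by 1.64 and the complement inhibitor gene Cd59a by 1.57. The melanosome gene Oca2, detected on 2 of the 8, and Aph1a, a subunit of gamma secretase, each differed by 1.55. Each of these 15 genes lay above all 8 arrays, which is how they were chosen.

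**Figure D2:**
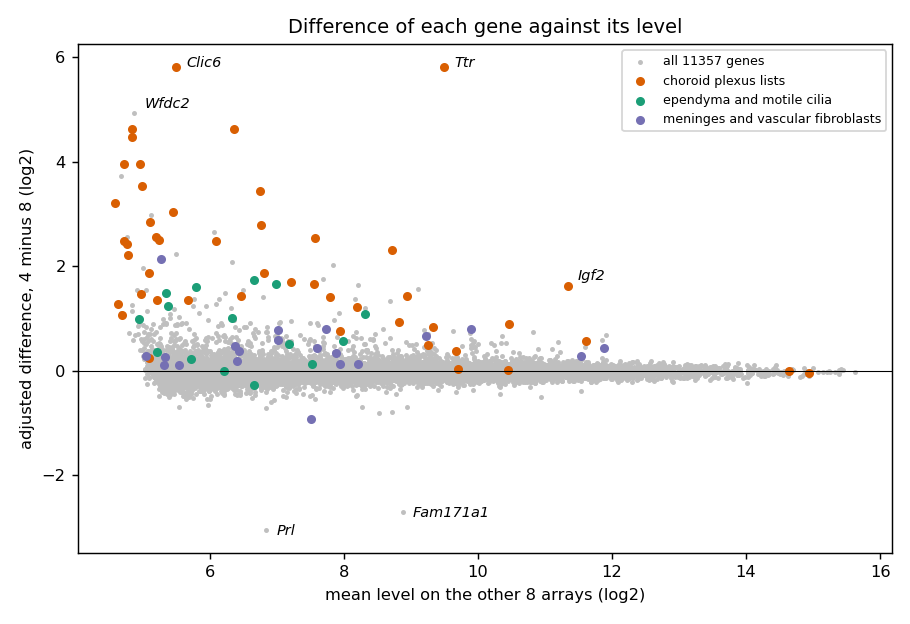
Adjusted log2 difference between the 4 and the 8 arrays (y axis) against mean log2 level on the 8 arrays (x axis) for 11357 genes, with members of 3 kinds of list in colour. Plexus genes lead the upper edge at low levels on the 8 arrays, Igf2 stands out at a high level, and Fam171a1 and Prl are the 2 genes under -1.

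In the opposite direction, Fam171a1, which encodes a membrane protein also called astroprincin, stood apart. It was 5.99 on EtOH 2, 5.68 on EtOH 4, 5.69 on Control 2 and 6.74 on Control 4, against 8.50 to 9.12 (median 8.90) on the 8 arrays. The difference was -2.69, so that the 8 arrays were 6.47-fold above the 4, and a second probe differed by -2.47. The remaining probe was not detected on any array. No other gene whose sets did not overlap was lower by over 1, and the next was Ier5l, an immediate early response gene, at -0.80, followed by Zfp811 and Chid1 at -0.69. Zfr2, Trmt10b, Sox13, Adck5, BC030500 and Trpc6 lay between -0.59 and -0.46. Zfp811 and Trmt10b were not detected on any of the 4 arrays, so the 8 were at least 1.19-fold and 1.28-fold above them, and the second probe of Trpc6 had the opposite sign.

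Prl, the pituitary hormone prolactin, differed by -3.04, the lowest value of any gene, but its sets overlapped. It was 12.04 on EtOH 1, 10.89 on Control 1 and 7.33 on EtOH 5, and between 4.55 and 5.53 on the other 9 arrays, the 4 included. Gh, growth hormone, was 9.57 on EtOH 1 and 8.29 on Control 1 and was not detected on the other 10, and Pomc was not detected on any. Prl, Gh and Pomc were chosen after their values were seen. These hormone transcripts therefore divided the arrays differently from the plexus genes, in 2 arrays that had low Ttr.

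Genes listed for ependyma and motile cilia were mostly higher with the plexus genes, by a smaller step. Of 15 measured genes, 10 lay above all 8 arrays (2.44% of all genes did) and the median difference was 0.99. Dynlrb2, a dynein light chain, was 8.23 on EtOH 2, 8.74 on EtOH 4, 8.70 on Control 2 and 7.84 on Control 4, against 6.28 to 7.07 (median 6.64), a difference of 1.74. Mia differed by 1.66 and Mlf1 by 1.60. Cfap126, Pifo, Rsph1 and Tekt1, genes of cilia, differed by 1.48, 1.25, 1.09 and 1.00. The remaining 3 were Cfap52 (0.99, detected on 1 of the 8), Rarres2 (0.56) and Rsph4a (0.51). Of the 2 other kept probes of Rarres2, 1 had the opposite sign. The list mean lay between 6.99 and 7.48 on the 4 arrays, above the 6.25 to 6.64 of the 8.

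The defining markers of ependyma were less clear. Foxj1, the master factor of motile cilia, was 5.54 on EtOH 2, 5.76 on EtOH 4, 5.41 on Control 2 and 5.53 on Control 4 against 4.76 to 5.59, close to background, and overlapped (0.35). Dnah11, an axonemal dynein heavy chain, differed by 0.01, Tppp3 by 0.14 and Ccdc39 by -0.28, although the 2 other Ccdc39 probes had the opposite sign. Of 26 genes of this list with a probe, 11 did not pass the filter, Hydin, Spag6 and Tmem212 among them. Nek5 did not pass either, yet it lay above all 8 arrays. The part of the ependyma in the differences was not tested.

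**Figure D3:**
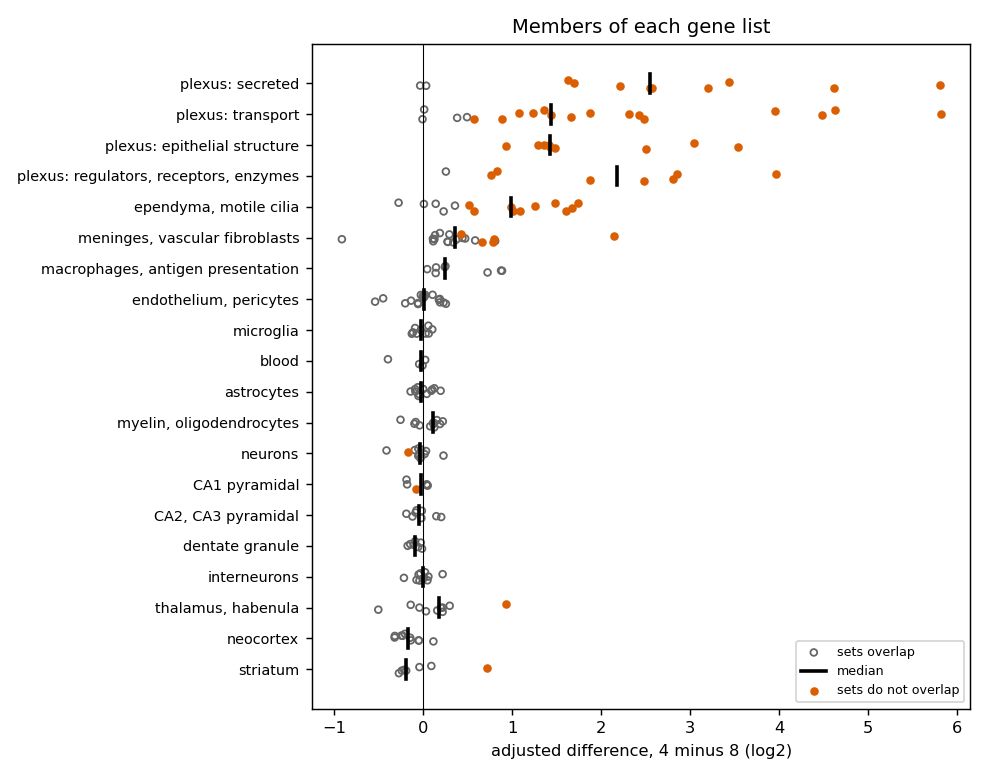
Adjusted log2 difference between the 4 and the 8 arrays (x axis) for each measured member of 20 gene lists (y axis), filled where the sets do not overlap, with a bar at the median. The 4 plexus lists lie far to the right, ependyma with motile cilia has a median of 0.99, meninges 0.35, and the lists below macrophages have medians between -0.19 and 0.18.

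Fibroblast genes of the meninges and vessels were divided. Of 20 measured, 5 lay above all 8 arrays (2.44% of all genes did) and the median was 0.35. Pcolce, an enhancer of collagen processing, was 7.49 on EtOH 2, 7.25 on EtOH 4, 8.30 on Control 2 and 6.98 on Control 4 against 4.93 to 5.76, a difference of 2.15. The small proteoglycan genes Ogn, Lum and Bgn differed by 0.80, 0.78 and 0.66, and the complement inhibitor gene Serping1 by 0.43. Mgp, an inhibitor of calcification, was 0.81 higher with overlap, and Igfbp6, a binding protein of IGF2, was lower (-0.92) with overlap, at 5.96 to 7.19 on the 4 and 6.77 to 8.11 on the 8. The collagen genes Col1a1 (0.27) and Col1a2 (0.11) overlapped near background, and Col3a1, Foxd1, Slc22a2 and Cped1 did not pass the filter. The list mean lay between 7.55 and 8.18 on the 4 arrays and reached 7.14 to 7.63 on the 8, so the ranges overlapped, and its part in the result was not tested.

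Immune cells of the plexus core gave weaker values. Of 8 measured genes of macrophages and antigen presentation, 0 lay wholly above the 8 arrays (2.44% of all genes did). All 8 genes had positive differences with a median of 0.24, where 44.1% of all genes had positive differences. The class II genes H2-Eb1, Cd74 and H2-Ab1 differed by 0.88, 0.87 and 0.72. Cd74 was 6.71 on EtOH 2, 6.31 on EtOH 4, 7.26 on Control 2 and 6.05 on Control 4, against 5.12 to 6.36 (median 5.41), and the overlap came from Control 1, the highest of the 8. H2-Aa, Cd163 and Ccr2 did not pass the filter, yet 1 of them lay above all 8 arrays. The list mean lay between 6.17 and 6.79 on the 4 arrays, above the 5.68 to 6.13 of the 8, and its part in the result was not tested. Microglia, the resident macrophages of the parenchyma, had a median of -0.03, with P2ry12 at -0.13, Tmem119 at -0.12 and Trem2 at 0.10. Blood genes had -0.03, with Hba-a1 at -0.05 and the erythroid enzyme gene Alas2 at -0.40. Endothelium and pericytes had 0.003 over 17 genes, with Kcnj8 at -0.54, the tight junction gene Cldn5 at -0.45 and Ly6c1 at 0.25.

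As lists, neurons and glia of the hippocampus itself did not divide the arrays. Slc17a7, the vesicular glutamate transporter of principal neurons, was 12.06 on EtOH 2, 11.77 on EtOH 4, 12.01 on Control 2 and 11.87 on Control 4, inside or next to the 11.66 to 11.96 of the 8, and Prox1, the factor of dentate granule cells, differed by -0.02. Median differences were -0.04 for neurons in general, -0.02 for CA1 pyramidal cells, -0.05 for CA2 and CA3, -0.09 for dentate granule cells and -0.01 for interneurons. They were -0.02 for astrocytes and 0.11 for myelin. Among 12 general neuronal genes Map2, a dendritic microtubule protein, lay below all 8 arrays (-0.18, other probes of the same sign). Among 6 CA1 genes Pou3f1 did so by -0.09, where 0.493% of all genes lay below. All 7 measured granule cell genes had negative differences, led by C1ql2 at -0.18 and Rfx3 at -0.15, and each overlapped, while 44.1% of all genes had positive differences.

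The remaining members named by size were small. In CA1 they were Fibcd1 (-0.19), Mpped1 (-0.18) and Pou3f1, with Wfs1 at 0.05, and in CA2 and CA3 Coch (0.20), Grik4 (-0.19) and Amigo2 (0.14). Interneurons had Vip at -0.22, Calb2 at 0.22 and Pvalb at -0.08, and general neuronal genes had Tubb3 at -0.42 near background and Nefm at 0.23. Oligodendrocytes had Olig2 at -0.26, Trf at 0.22 and Mog at 0.19, and astrocytes Apoe at 0.19, Slc1a2 at -0.14 and Aqp4 at 0.12. All of these but Map2 and Pou3f1 overlapped between the sets.

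Tissues next to the hippocampus gave single genes rather than whole lists above all 8 arrays. These were 1 of 10 thalamic, 1 of 7 striatal and 0 of 10 neocortical genes (2.44% of all genes lay above). Zic1, a factor of medial thalamus and also of meninges, was 8.64 on EtOH 2, 7.67 on EtOH 4, 7.78 on Control 2 and 7.65 on Control 4, against 6.65 to 7.42, a difference of 0.93. Slc17a6, the glutamate transporter of thalamic neurons, differed by -0.51 with wide overlap, and Ramp3, the next thalamic gene, by 0.29. Ppp1r1b, the phosphatase inhibitor DARPP-32 of striatal neurons, which rat plexus epithelium also contains, was 10.35 on EtOH 2, 10.84 on EtOH 4, 10.96 on Control 2 and 10.34 on Control 4, against 9.66 to 10.10. Its difference was 0.72. Of the 7 measured striatal genes 2 had positive differences and 5 had negative ones, led by Scn4b (-0.28) and Drd1 (-0.24). Neocortical genes had a median of -0.18, with negative differences in 9 of 10, Foxp1 and Tbr1 at -0.32 and Rorb at -0.25. The thalamic and striatal medians were 0.18 and -0.19.

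Lists of function held few further genes. Of 11 measured genes that handle thyroid hormone and retinoids, 2 lay above all 8 arrays (2.44% of all genes did). They were Ttr, which chose the arrays, and Rdh5, both also in the plexus lists. Stra6, the receptor that takes up retinol from its carrier, differed by 0.66 with overlap. Dio3, which inactivates thyroid hormone, differed by -0.52 with overlap. Of 13 genes that handle iron and copper, 3 lay above all 8, namely Steap1, Steap2 (1.37) and Slc31a1, where 2.44% of all genes did. Steap1 and Slc31a1 are also in the plexus lists. Cp (ceruloplasmin) differed by 0.53 with overlap. The 16 measured subunits of oxidative phosphorylation had a median of 0.04, with Ndufb9, Cox7b and Ndufa1 at 0.10, 0.09 and 0.09 and none free of overlap.

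The 4 arrays were not equal among themselves. Of the 78 genes other than Ttr that lay above all 8 arrays by over 1, 59 were highest on Control 2 and 69 were lowest on Control 4. The order Control 2, EtOH 4, EtOH 2, Control 4 held for 48 of the 78 (61.5%), and EtOH 4 ahead of Control 2 with the rest unchanged for another 16 (20.5%). The mean of 46 plexus genes without Ttr was 9.72 on Control 2, 9.52 on EtOH 4, 9.03 on EtOH 2 and 8.63 on Control 4, and 7.11 to 7.20 on the 8. Over the 34 plexus genes with a difference over 1, Control 2 exceeded Control 4 in 34, by a median of 1.26 (2.39-fold) and between 0.44 and 1.97. Normalized Ttr hardly separated the 4 arrays, with 15.39 on EtOH 2 and Control 4, 15.43 on Control 2 and 15.47 on EtOH 4, near the top of the scale. Both the highest and the lowest array were Controls, and they lay on different chips.

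Of the 15 named genes that no list held and that were higher on the 4 arrays, 9 ran in that same order and 4 in the order with EtOH 4 ahead of Control 2. Inmt and Tcea3 ran in other orders. Of all 35 genes in no list that lay above the 8 arrays by over 1, 19 ran in that order. Cdkn1c was 10.49 on Control 2, 10.18 on EtOH 4, 9.74 on EtOH 2 and 9.65 on Control 4. Fam171a1 was higher on Control 4 (6.74) and EtOH 2 (5.99) than on Control 2 (5.69) and EtOH 4 (5.68). Ier5l was 7.18 on Control 2, 7.47 on EtOH 4, 7.83 on EtOH 2 and 8.13 on Control 4, the reverse of the plexus order. The 56 genes that lay below all 8 arrays did not share 1 order, since Control 4 was highest in 21 and lowest in 11 of them.

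**Figure D4:**
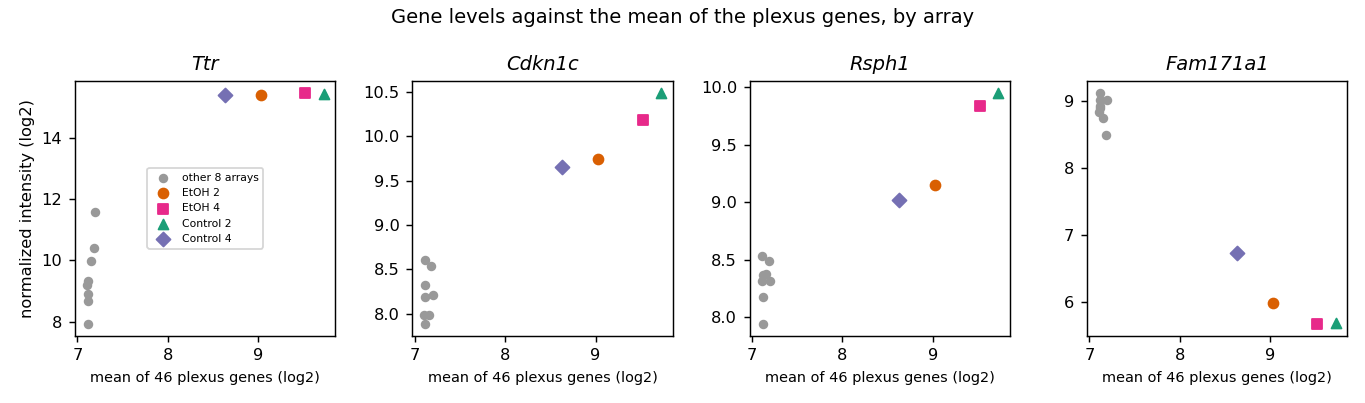
Normalized log2 intensity (y axis) of Ttr, Cdkn1c, Rsph1 and Fam171a1 against the mean log2 intensity of 46 plexus genes without Ttr (x axis), 1 point per array. Cdkn1c and Rsph1 are higher and Fam171a1 lower on arrays with more plexus signal among the 4, whereas Ttr stays between 15.39 and 15.47; the genes drawn were picked with their values known.

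Within the 8 arrays, which the choice did not order, Ttr still varied from 7.92 to 11.57. Its correlation across them with the mean of 27 plexus genes detected on those arrays had a Pearson r of 0.71 (exact permutation p = 0.0493, two-sided, adjusted 0.246 over 5 lists) and a Spearman rho of 0.81 (exact permutation p = 0.0218, adjusted 0.109). Neither passed the adjustment. Without Control 5 and Control 3, the arrays farthest from the median of Ttr, r was 0.85. With median scaling in place of quantile normalization r was 0.11. The plexus mean itself spanned 8.60 to 8.75, so the rest of the list moved little while Ttr moved. Pearson r was -0.26 for ependyma, 0.34 for meninges, 0.34 for endothelium and 0.51 for neurons (exact permutation p from 0.209 to 0.536), and none passed. The chips hold 3 and 5 of the 8 arrays, so no correlation is given within a chip. An alternative chosen after seeing the data took each chip's mean out of both measures. The plexus r was then 0.71 (exact permutation within chips, p = 0.0736, adjusted 0.368). With ranks over the 8 arrays as the measures, and chip means taken out of the ranks, r was 0.83 (exact permutation within chips, p = 0.0139, adjusted 0.0695).

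The study compares hippocampal gene expression after ethanol exposure in early pregnancy with that of Controls, and 2 of the 4 arrays belong to each group. On chip 1 they are 2 of 4 EtOH and 1 of 2 Control arrays, and on chip 2 they are 0 of 2 EtOH and 1 of 4 Control arrays. With chip alone as a term, 42 of 47 plexus genes had lower values in EtOH, with a median difference (EtOH minus Control) of -0.29. With a further term for the 4 arrays the median was -0.07, with 33 of 47 lower, and within the 8 arrays alone it was -0.02, with 30 of 47 lower. These 3 fits share arrays. Leaving out Control 2 turned the median with the further term to 0.08. Ttr differed by -1.10 with chip alone, by -0.37 with the further term and by -0.50 within the 8. Limma called 0 of the 47 in each of the 3 fits (0% of all probes).

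The meningeal and macrophage lists moved less. The meningeal median was -0.38 with chip alone, -0.29 with the further term and -0.23 within the 8 arrays, and 17, 17 and 16 of the 20 genes had lower values in EtOH. Mgp differed by -0.59, -0.48 and -0.48 and Lum by -0.43, -0.33 and -0.34 in the same order. With the further term limma gave Mgp a 95% interval of -0.74 to -0.23 and Lum one of -0.49 to -0.17, each with an adjusted p of 0.945 over all probes. Macrophage and antigen presentation genes had medians of -0.34, -0.32 and -0.25, with 8, 8 and 6 of 8 lower, and Cd74 differed by -0.67, -0.56 and -0.57. At an unadjusted p under 0.05 the fit with the further term gave 9 of 20 meningeal genes, 5 of 8 macrophage genes and 1 of 47 plexus genes, where 3.3% of all genes did. With chip alone the counts were 8, 4 and 0, where 341 of 11357 genes did. Within the 8 arrays they were 6, 2 and 5, where 360 did. Genes of a list can vary together, so these are not counts of independent genes. None of these genes passed after adjustment. Single arrays moved some of these values, as seen when each was left out in turn. Within the 8 arrays the meningeal median was -0.13 without EtOH 5, the macrophage median -0.17 without Control 1 and the Cd74 difference -0.29 without Control 1. With the further term the macrophage median was -0.21 without Control 2, and every median of the 2 lists and every difference of Mgp, Lum and Cd74 kept its sign without each array in turn.

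**Figure D5:**
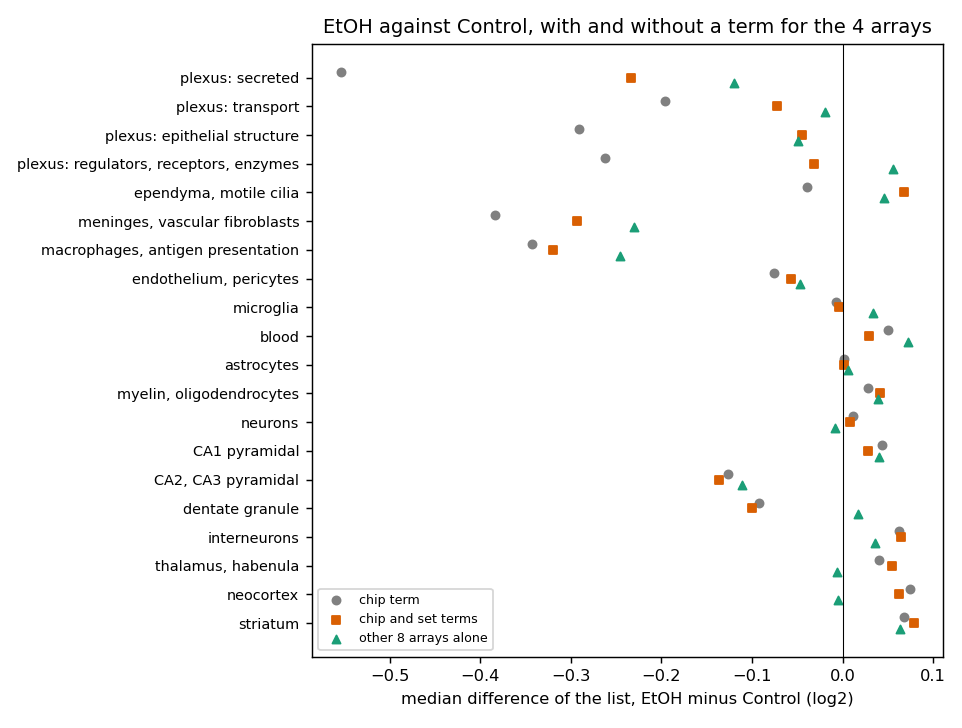
Median difference between EtOH and Control (x axis, log2) for 20 gene lists (y axis) in 3 limma fits, with chip as a term, with chip and the set of 4 arrays as terms, and in the other 8 arrays alone. The plexus medians move towards 0 when the 4 arrays are a term or are left out, and the meningeal and macrophage medians stay at -0.23 or lower.

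Across all probes limma called 0 of 21226 in every fit at an adjusted p under 0.05. With the 4 arrays as a term the lowest adjusted p was 0.945, and 807 probes (393 higher and 414 lower in EtOH) had an unadjusted p under 0.05. Without that term the lowest was 0.961, with 757 probes, and within the 8 arrays 0.834, with 803. The term narrowed the median half-width of the 95% interval from 0.210 to 0.206, and the 8 arrays alone gave 0.237.

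Of the 5 genes with the lowest p, 4 were shared between the fits on 12 arrays. Slc6a12, the betaine and GABA transporter BGT1, differed by -0.67 with the term (95% interval -0.93 to -0.42) and by -0.70 without it, at 5.66 ± 0.28 in EtOH and 6.18 ± 0.19 in Control within the 8 arrays (SD, n = 4 each). Them7 (0.40), the zinc finger gene Zfp286 (0.34), Hook2, a linker of endosomes to microtubules (0.38), and Dcaf10, a ubiquitin ligase adaptor (0.36), followed with the term, and without it Orc2, of the origin recognition complex, took the place of Hook2 (0.27). Within the 8 arrays the lowest p belonged to Jrk (0.62), Pttg1, the securin gene (-0.63), the chemokine gene Ccl21a (-0.55), Zfp106 (0.43) and Spdya, an activator of cyclin-dependent kinases (0.50). Each has an adjusted p of 0.834 or above in limma, and Ccl21a has near-identical copies, so which copy its probe reads is uncertain.

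Whether the EtOH difference itself depended on the set was tested with an interaction term. Limma called 0 of 21226 probes (lowest adjusted p 0.755), and 654 probes had an unadjusted p under 0.05, 347 of them higher. The median half-width was 0.419, since each group holds only 2 of the 4 arrays. Abca14 (-0.83), Edaradd (0.88), Gm1943 (-0.76), Spdya (-0.77) and Tmx3 (-0.68) had the lowest p, and each was close to background or of low level, between 4.89 and 6.64 on every array. The plexus list had a median interaction of 0.09, with 33 of 47 above 0.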

How the data were processed

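RNA of 12 hippocampus samples was hybridised to 12 bead arrays. The authors deposited a table with the signal intensity of 45281 probes per array, linear and not normalized per the file headers, and a detection p-value beside each. The submitters' processing notes name GenomeStudio 1.9.0. Another deposited table holds linear intensity values that follow the first after quantile normalization and served as an alternative. Columns without a known sample numbered 0.

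Intensities were background-corrected and quantile-normalized with neqc (offset 16) in limma 3.58.1 under R 4.3.3. A probe was kept with a detection p under 0.05 on at least 4 of 12 arrays, which left 21226 probes, of which 17944 name 1 gene of 11357. In the platform annotation 34885 probes name 1 gene, 18 several and 10378 none. Checked against RefSeq names of GRCm38.p6, 0 symbols were updated. The build of the probes is not given in the sources used here.

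Differences between the 4 and the 8 arrays are lmFit coefficients with chip and group as terms, given without a test. A set of genes has no overlap where the lowest array of one set exceeds the highest of the other. A gene not detected on any array of a set has only a bound, taken from the lowest detected signal of those arrays. EtOH was compared with Control by two-sided limma tests (lmFit, eBayes) with Benjamini-Hochberg adjustment over all kept probes, in all 12 arrays with and without a term for the 4, in the 8 alone, and for the interaction. The code was tested on simulated data.

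The arrays, the gene lists and the tests were chosen with earlier results of these data known. Named genes are the measured plexus members, the 15 highest and 10 lowest differences outside the lists among genes without overlap, 3 members of each other list by size with a defining marker where needed, and the 5 lowest p of each fit. Further members of the ependyma, meninges and macrophage lists, and genes marked so in the text, were chosen after their values were seen. Deviations of same-numbered EtOH and Control arrays from their group means correlated by 0.114 to 0.338. Only 2 of the 6 pairs correlated best with their own number, so no pairing is shown. The titles' numbers were also tried as a block. Arrays 2 and 4 of both groups make up the set, so no blocked comparison of the 4 with the 8 exists. The number of arrays limits the precision.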

Additional observations from a re-analysis of the deposited data

Results flagged for a closer look

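Levels of named genes were searched for an array far from the others of its set, by its distance to the closest array as a share of the set's range. Of 290 sets examined, 17 held such an array (5.86%), where chance gives about 1 in 20, and 16 of them were detected there and are given. The first log2 value is that of the array and the second its neighbour.

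Control 1 held 5 of them. It was highest of the 8 arrays for the class II genes Cd74 (6.36 against 5.64) and H2-Ab1 (6.20 against 5.55) and for the granule cell gene Tspan18 (8.23 against 7.78). It was lowest for the thalamic gene Ramp3 (5.58 against 6.48) and for Cox7b (6.46 against 6.72).

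Control 5, the array with the most Ttr among the 8, was highest for the plexus gene Lbp (5.95 against 5.28). Control 3, with the least Ttr, was lowest for the plexus gene Rdh5 (6.43 against 6.68) and highest for Trpc6 (7.73 against 7.56). EtOH 3 was highest for Slco1c1 (9.84 against 9.71) and lowest for Pcolce2 (5.75 against 6.24).

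EtOH 5 was highest for Pou3f1 (10.47 against 10.38) and lowest for Calb2 (10.41 against 10.97). EtOH 1 was lowest for Apoe (12.10 against 12.33) and Control 6 for Ndufa1 (12.46 against 12.60). Control 4 was the highest of the 6 Control arrays for Abca14 (5.81 against 5.52). Among the 4 arrays, EtOH 2 was highest for Zic1 (8.64 against 7.78).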

How the results depend on the processing

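Alternatives used another background correction, normalization or filter, other terms, 1 chip or group alone, and left out each array in turn. The checks of Ttr within the 8 arrays under other normalizations, and those of EtOH against Control without the term for the 4, were added after seeing the data. Limma called 0 probes in each EtOH comparison under every alternative run, and the lowest adjusted p over them was 0.086 without the term, 0.184 with it, 0.373 within the 8 arrays and 0.144 for the interaction. The replicate block with chip gave 0 limma calls and a lowest adjusted p of 0.958, so a block by the titles' numbers changed no call.

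The median difference of the plexus lists was 1.1075 in the authors' normalized table and 1.1058 with no background correction. It was 1.43 with detection on at least 6 arrays, 1.41 with detection p under 0.01 on all arrays and 1.42 with no filter. It was 1.80 without the chip term, 2.13 on chip 1 alone, 1.33 on chip 2 alone and 1.95 in EtOH arrays alone. Genes with a difference over 1 numbered 43 in the authors' table, 43 with no background correction and 30 with the strictest filter. Genes under -1 numbered 1 with detection on at least 6 arrays, 0 with the strictest filter (a count with no test), 7 on chip 1 alone and 4 in Control arrays alone. Prl turned to 0.39 on chip 2 alone, and r of Ttr with the neuronal list turned to -0.0907 with median scaling. With 1 array left out, genes without overlap ranged from 285 to 437 higher and from 68 to 163 lower, counts that leaving out an array cannot reduce. Differences over 1 ranged from 72 to 111, those under -1 from 2 to 7, the plexus median from 1.60 to 2.13 and EtOH calls from 0 to 0. Of the genes without overlap, 83.2% were higher, 76.9% with median scaling, which kept 200 of the 277 higher and 27 of the 56 lower. The cause was not tested. For single genes, 2513 of 2954 alternative values stayed within 1 SD of the 8 arrays.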
